A study of Homo sapiens with 2 samples.

Results

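The members described here are 8 RNAs encoded in the mitochondrial genome, out of 13075 genes in the deposited table. They are the mRNAs of cytochrome c oxidase (MT-CO1, MT-CO2 and MT-CO3), of ATP synthase (MT-ATP6 and MT-ATP8) and of cytochrome b (MT-CYB), and both rRNAs of the mitochondrial ribosome (MT-RNR1 and MT-RNR2). They were taken from the table by gene symbol alone, and each symbol matched 1 row. RNA came from HEK293, a human embryonic kidney line, at passage 15, transfected with the R338W form of TOP3B bearing a FLAG tag. TOP3B belongs to the topoisomerases and can act on RNA as well as DNA. The RIP (RNA immunoprecipitation) library held RNA recovered with an anti-FLAG antibody. The input library came from the same kind of transfected cells with no antibody. Both groups therefore carry the tagged mutant protein, and cells without it, or a RIP with another antibody, were not analysed here. There was 1 library per group, so no difference below has a replicate check and none was tested.

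Mitochondrial DNA is transcribed as long precursor RNAs that cover nearly a whole strand. Excision of the tRNAs that punctuate them releases the rRNAs and most mRNAs, while some mRNAs, such as that of MT-ATP8 and MT-ATP6, remain joined. The mRNAs have almost no untranslated sequence, and for some the stop codon is completed only by the added poly(A) tail. They are translated inside the organelle, and the proteins join nuclear-encoded partners in the respiratory chain, which is why their level is often followed together with that of nuclear subunits.

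The mRNA ends are shown because they set where one measured gene stops and the next begins. All positions are on the plus strand of the mitochondrial chromosome of GRCh38, and all sequences are the reference ones of GENCODE release 29. Capitals mark the stop triplet, or the part of it that the DNA encodes, in the last 24 bases of each gene.
MT-CO1 (chrM:7422-7445): gaacccgtatacataaaatctAGA
MT-CO2 (chrM:8246-8269): atagggcccgtatttaccctaTAG
MT-ATP6 (chrM:9184-9207): ctctacctgcacgacaacacaTAA
MT-CO3 (chrM:9967-9990): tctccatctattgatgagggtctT
MT-CYB (chrM:15864-15887): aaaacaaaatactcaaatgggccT
MT-CO3 and MT-CYB end with a lone T, whereas MT-CO1 ends with AGA, which the mitochondrial code does not read as arginine. MT-ATP6 and MT-CO3 share 1 base.

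MT-ATP8 is shown whole because it has the lowest ratio of the members and is the shortest, and because its end is also the start of MT-ATP6. Capitals mark the 46 shared bases, which are 22.2% of MT-ATP8.
MT-ATP8 (chrM:8366-8572): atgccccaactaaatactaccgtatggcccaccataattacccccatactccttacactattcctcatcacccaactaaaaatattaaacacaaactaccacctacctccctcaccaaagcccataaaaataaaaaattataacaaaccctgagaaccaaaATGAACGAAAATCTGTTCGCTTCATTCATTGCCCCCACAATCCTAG
MT-ATP6, first 100 bases (chrM:8527-8626): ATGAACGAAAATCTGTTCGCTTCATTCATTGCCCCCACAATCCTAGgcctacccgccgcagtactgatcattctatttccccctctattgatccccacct
The shared stretch is shorter than the estimated mean fragment of 170 bases in the RIP and 168 in the input. Fragments that cover it can run on into either gene, and how they were assigned is not given in the sources used here.

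All 8 RNAs were lower in the RIP than in the input. Values are FPKM, a level per length of transcript and per total of the library, and each ratio is log2((RIP + 1)/(input + 1)). The 6 mRNAs had a median log2 ratio of -1.29 and the 2 rRNAs one of -1.10, against 0.13 for the 11990 genes that reached 5 FPKM in either library or both. Of the 8 members, 6 were at least 2-fold lower. Over all genes tested 300 (2.50%) were at least 2-fold lower and 588 (4.90%) at least 2-fold higher. The ratio sets recovery with the antibody against the level in input from the same kind of cells, relative to the other RNAs. It does not measure a change in the cells. A difference between the cells of the 2 libraries, if there was any, cannot be told apart from recovery. For the levels themselves, in bulk lysate, fewer cells holding an RNA and less of it per cell cannot be told apart.

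**Figure D1:**
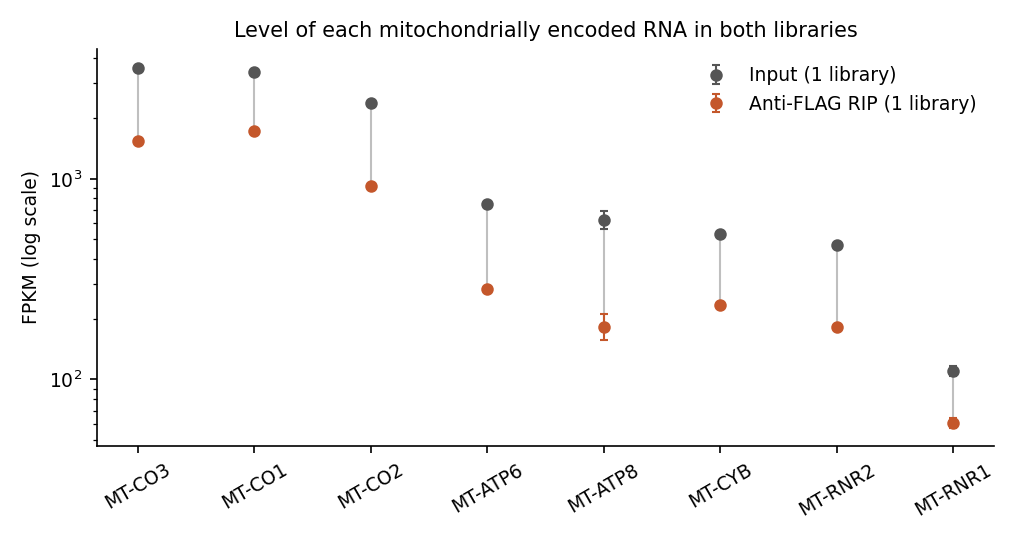
FPKM on a log axis of the 8 RNAs in the input (grey) and the RIP (orange), 1 library each, in the order of their input level. Bars are 95% Poisson intervals from estimated fragments and cover counting error only. Every orange point lies under its grey point, from MT-CO3 (1549 and 3558 FPKM) to MT-RNR1 (60.9 and 110 FPKM).

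The cytochrome c oxidase mRNAs were the most abundant members in both libraries. MT-CO1, which encodes the subunit with the catalytic centre, stood at 1739 FPKM in the RIP against 3424 in the input. MT-CO2, whose subunit takes up electrons from cytochrome c, stood at 921 and 2396 FPKM. MT-CO3, a structural core subunit, stood at 1549 and 3558 FPKM. MT-CO1 was thus the higher of MT-CO1 and MT-CO3 in the RIP and the lower in the input, and the counting intervals of the pair did not overlap in either library. Together the 3 made up 81.7% of the members' summed FPKM in the RIP against 79.1% in the input.

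Their log2 ratios differed from each other by more than counting error. MT-CO1 had -0.98, just short of 2-fold lower, with a counting interval of -0.99 to -0.96. MT-CO3 had -1.20 (interval -1.22 to -1.18) and MT-CO2 had -1.38 (interval -1.41 to -1.35). Expressed within each library, where any scaling cancels, MT-CO2 stood at 0.529 of MT-CO1 in the RIP against 0.700 in the input. MT-CO3 stood at 0.891 of MT-CO1 in the RIP against 1.04 in the input. These intervals come from estimated fragments and leave out the variation between experiments, which 1 library per group does not give.

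The ATP synthase mRNAs lie on 1 transcript but had different levels. MT-ATP6, which encodes the membrane subunit of the proton channel, stood at 281 FPKM in the RIP against 753 in the input, a log2 ratio of -1.42. MT-ATP8, a small subunit of the membrane sector, stood at 183 and 622 FPKM, a log2 ratio of -1.76. In the RIP MT-ATP8 stood at 0.651 of MT-ATP6 and in the input at 0.827, a log2 change of -0.35 with a counting interval of -0.61 to -0.08. MT-ATP8 is 207 bases long and the estimated mean fragment was 170 bases in the RIP against 168 in the input. FPKM then rests on an effective length of about 38 and 40 bases, and on about 173 and 381 fragments, far fewer than for any other member. These figures use the mean fragment length alone, which was estimated on genes of at least 300 bases. The intervals of MT-ATP8 rest on them and are uncertain for that reason too. The part of this short length in the lower ratio was not tested.

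MT-CYB, the only mitochondrially encoded subunit of complex III, stood at 236 FPKM in the RIP against 529 in the input. Its log2 ratio of -1.16 lay between those of MT-CO1 and MT-CO3. In the input MT-ATP8 was above MT-CYB, and in the RIP MT-CYB was above MT-ATP8. The RIP intervals of that pair, 230 to 242 FPKM for MT-CYB and 157 to 212 FPKM for MT-ATP8, did not overlap.

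The rRNAs stood on either side of the 2-fold limit. MT-RNR2, the large-subunit rRNA (chrM:1671-3229), stood at 182 FPKM in the RIP against 467 in the input, a log2 ratio of -1.36. MT-RNR1, the small-subunit rRNA (chrM:648-1601), stood at 60.9 and 110 FPKM, a log2 ratio of -0.85. The MT-RNR1 interval of -0.96 to -0.73 and the MT-RNR2 interval of -1.40 to -1.31 did not overlap. Within a library MT-RNR2 stood at 2.99 times MT-RNR1 in the RIP against 4.23 times in the input.

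The contrast of mRNAs with rRNAs was small beside the spread within each kind. The mRNA median minus the rRNA median was -0.19 on the log2 scale, and without MT-ATP8, left out after seeing the data, it was -0.10. The mRNA ratios ran from -1.76 to -0.98 and the rRNA ratios from -1.36 to -0.85, so both ranges overlapped. Summed FPKM of the 6 mRNAs was 20.2 times that of the rRNAs in the RIP against 19.5 times in the input. MT-CO1 stood at 9.56 times MT-RNR2 in the RIP against 7.33 times in the input, but at 28.5 and 31.04 times MT-RNR1. Which rRNA was used as the reference thus decided the sign of the difference for MT-CO1.

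Both rRNAs had lower FPKM than the mRNAs in both libraries. In the RIP the gap between MT-ATP8 and MT-RNR2 (183 and 182 FPKM) was within counting error, with intervals of 157 to 212 and 178 to 187 FPKM. In whole-cell RNA the mitochondrial rRNAs are normally far more abundant than the mRNAs. The labels name a total RNA kit, and whether rRNA was removed before sequencing is not given in the sources used here. Hence the rRNA values may not stand for levels in the cells, and the part of the library preparation in their ratios was not tested.

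**Figure D2:**
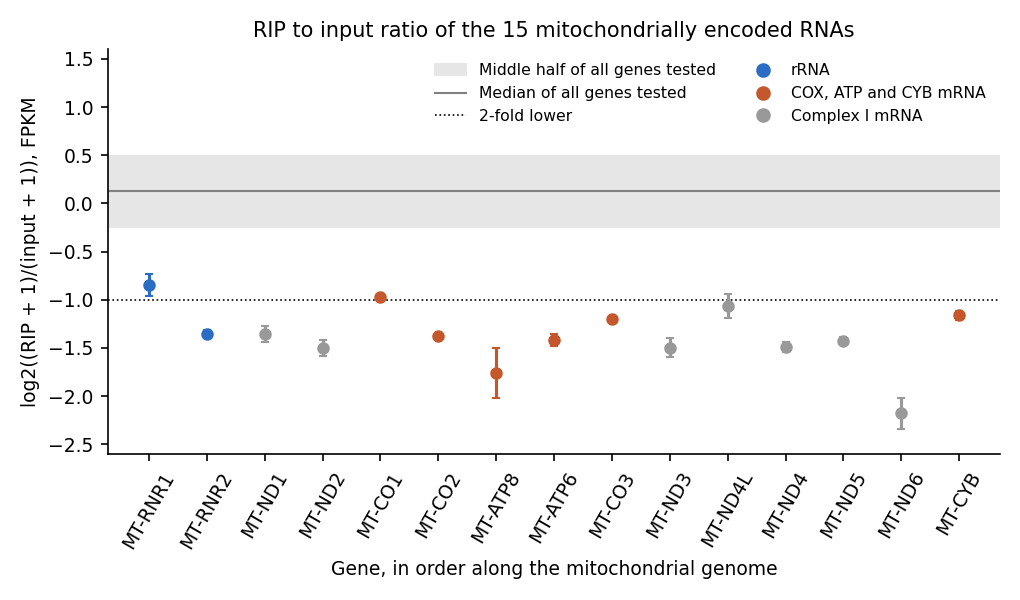
log2 ratio of RIP to input for the 15 mitochondrially encoded RNAs in the table, in order along the mitochondrial genome, with rRNAs in blue, the COX, ATP and CYB mRNAs in orange and complex I mRNAs in grey. Bars are 95% intervals for counting error only, the band holds the middle 50% of all genes tested (-0.25 to 0.50), and the dotted line marks 2-fold lower. All 15 lie under the band, and MT-RNR1 and MT-CO1 lie above the dotted line.

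Ratios did not run in 1 direction along the genome. From the rRNA end they were -0.85 (MT-RNR1), -1.36 (MT-RNR2), -0.98 (MT-CO1), -1.38 (MT-CO2), -1.76 (MT-ATP8), -1.42 (MT-ATP6), -1.20 (MT-CO3) and -1.16 (MT-CYB). MT-RNR2 and MT-CO1, of 1559 and 1542 bases, are alike in length and had ratios of -1.36 and -0.98. MT-ATP8 had the lowest GC content of the members, 39.6%, and the others lay between 42.8% and 46.6%. All 8 are encoded in the same orientation.

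The complex I mRNAs of the same genome were lower as well. All 7 were at least 2-fold lower, beside 2.50% of all genes tested, with a median log2 ratio of -1.49. When the libraries were scaled to equal sums (TPM), 4 of the 7 were, beside 1.06% of all genes tested. MT-ND4L was nearest to the input at 272 FPKM in the RIP against 571 in the input, a log2 ratio of -1.06. MT-ND6, the only mRNA read from the other strand, was the farthest, at 47.2 and 217 FPKM, a log2 ratio of -2.18. The range of the 6 COX, ATP and CYB mRNAs, -1.76 to -0.98, overlapped that of complex I, -2.18 to -1.06.

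Against nuclear mRNAs the members lay near the low end. Of 10500 protein-coding genes tested outside mitochondrial DNA, 44 (0.419%) were at least 2-fold lower, and none had a ratio below that of MT-ATP8. MT-ATP6 and MT-CO2 each had 3 such genes below them, and MT-RNR2 and MT-CO3 had 4. Those were CD68 (9.34 FPKM in the RIP against 28.6 in the input), ALG14 (2.09 and 7.73), LUZP6 (8.55 and 24.9) and C7orf55 (7.72 and 21.5), an ATP synthase assembly factor also called FMC1, named after their values were seen. All 4 had far lower levels than the members. LUZP6 and C7orf55 share sequence with neighbouring genes, so their values are uncertain. MT-CYB had 6 coding genes below it, MT-CO1 had 57 and MT-RNR1 had 179. These counts moved with the pseudocount. With 0.1 FPKM, 1 coding gene lay below MT-ATP8 and 96 below MT-CO1, and with 5 FPKM the counts were 0 and 9. The mRNA median had 4 coding genes below it, against 11 and 0 with these pseudocounts.

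Among abundant RNAs the members were set against genes with a mean of at least 50 FPKM over both libraries, a limit chosen after seeing the data so that every member entered. There 72 of 2082 genes (3.46%) were at least 2-fold lower. They comprised 13 of the 15 mitochondrially encoded RNAs, 3 of 1873 nuclear protein-coding genes, 53 of 177 other annotated nuclear genes and 3 of 17 without an annotation match. How far short transcripts contributed to the 53 was not tested. The 3 nuclear coding genes were COX6C (67.6 and 144 FPKM), itself a cytochrome c oxidase subunit, RPS13 (260 and 538 FPKM), a ribosomal protein, and SELENOF (38.2 and 84.5 FPKM), a selenoprotein whose symbol had become a date in the table, named after their values were seen. Scaled to equal sums (TPM), 5 of the 15 mitochondrially encoded RNAs and 0 of the 1873 nuclear coding genes were at least 2-fold lower. Centred on the median gene the counts were 14 and 29, and scaled to nuclear coding genes 15 and 38.

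The genes nearest in ratio to the mRNA members were small structured RNAs. The measure was the absolute difference from the mRNA median over 2 libraries, among 760 nuclear genes with at least 100 FPKM in the input. The 5 nearest were RNY1, a Y RNA (log2 ratio -1.28), the spliceosomal RNAs RNU6ATAC (-1.32) and RNU5F-1 (-1.24), SNORA79 (-1.24) and SCARNA10 (-1.23). With only 2 libraries such likeness is 1 ratio per gene. The mean fragment was estimated at 170 bases (RIP) and 168 bases (input). For RNAs near or under that size FPKM rests on a short effective length, as for MT-ATP8. With values per annotated length, 146 of all genes tested were at least 2-fold lower instead of 300. The part of short length in the ratios of these small RNAs was not tested.

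For the nuclear partners of the same complexes, the median of each list lay between the member medians and the median of all genes. Some single genes lay above that range and none below it. Of the 11 nuclear subunits of cytochrome c oxidase (complex IV), all had ratios below 0 and 2 were at least 2-fold lower, with a median of -0.54. The 2 were COX6C and NDUFA4 (25.2 and 52.8 FPKM), and COX4I1 (188 and 233) and COX6A1 (230 and 271) were nearest to the input. Thus 2 of 3 mitochondrially encoded subunits of this enzyme and 2 of 11 nuclear ones were at least 2-fold lower. The share was 2.50% over all genes tested and 0.419% over nuclear protein-coding genes. MT-CO1, the nearest to the input of the 3 mitochondrially encoded subunits, had a ratio of -0.98. That was above those of COX6C (-1.08) and NDUFA4 (-1.04) and below those of the other 9 nuclear subunits. Scaled to equal sums (TPM), 0 of 3 mitochondrially encoded and 0 of 11 nuclear subunits were at least 2-fold lower, beside 1.06% of all genes tested. Of the 11 nuclear subunits, 6 then had ratios below 0.

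ATP synthase (complex V) had 17 nuclear subunits measured, none at least 2-fold lower, with a median of -0.37; when centred on the median gene or scaled to nuclear coding genes, 2 were lower. The peripheral stalk subunit ATP5J stood at 52.2 FPKM in the RIP against 98.6 in the input. ATP5H, of the same stalk, stood at 185 and 141 FPKM. Complex III had 9 nuclear subunits measured, none past the limit, with a median of -0.27. UQCRH stood at 166 and 274 FPKM and the core subunit UQCRC1 at 65.7 and 46.2. The assembly factors of complexes III to V had a median of -0.26 over 31 genes, none past the limit, from COX20 (11.8 and 21.2 FPKM) to the copper chaperone COX17 (46.6 and 32.5). Equal sums turned the medians of complex V (0.10), complex III (0.20) and the assembly factors (0.19) positive. Each of the 4 scalings moves all genes of a library alike, apart from the pseudocount. The medians of these lists and of complex IV therefore stayed below that of all genes by construction.

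**Figure D3:**
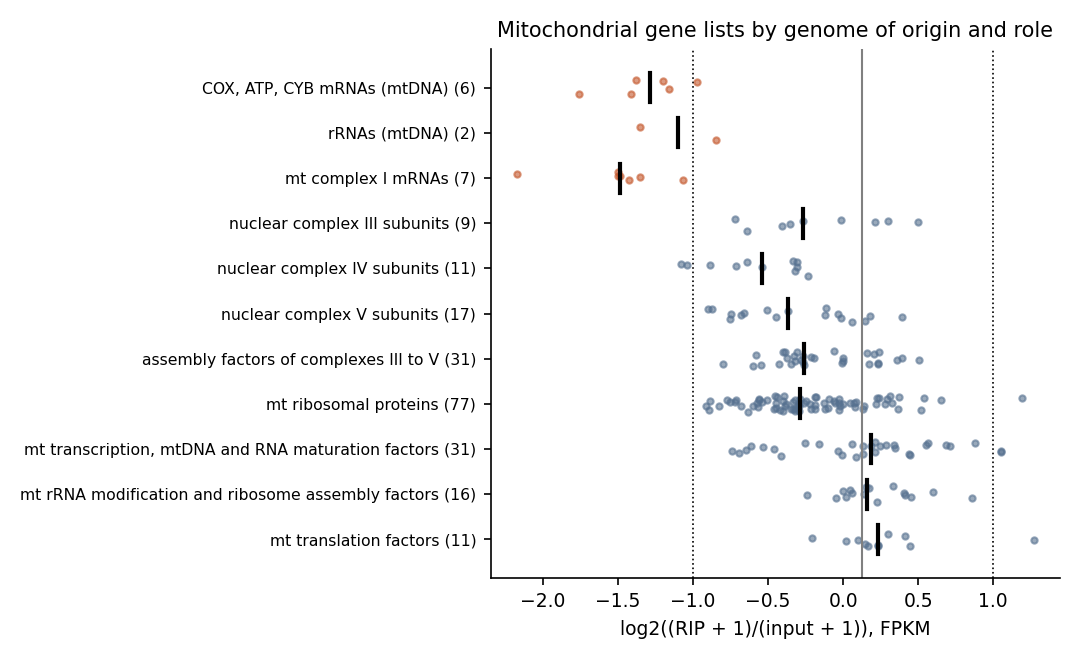
log2 ratio of RIP to input for each tested gene of 11 mitochondrial lists, with the number of genes in brackets. Orange points are encoded in mitochondrial DNA and blue points in the nucleus, black bars are medians, the grey line is the median of all genes tested (0.13), and dotted lines mark 2-fold. The medians of the mitochondrially encoded groups lie to the left of those of the nuclear lists, while single points overlap. The 3 lists of factors at the bottom lie around the grey line.

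Genes whose products make, mature or translate these RNAs lay around the median of all genes. Transcription, mitochondrial DNA and RNA maturation factors had a median of 0.18 over 31 genes, 2 of them at least 2-fold higher and none lower, a share near the 4.90% over all genes. Neither passed the limit when centred on the median gene or scaled to nuclear coding genes, and 6 genes did with equal sums. The 2 were TBRG4, a mitochondrial RNA-binding protein (67.5 FPKM in the RIP against 32.04 in the input), and POLG, the mitochondrial DNA polymerase (74.4 and 35.4). TEFM, the mitochondrial transcription elongation factor, stood at 14.1 and 24.2 FPKM, and SSBP1, the single-strand DNA-binding protein, at 92.4 and 150.

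Of the nuclear genes whose products act on or bind the rRNA members, the modification factors lay near the median of all genes and the ribosomal proteins below it. Factors for rRNA modification and ribosome assembly had a median of 0.16 over 16 genes, none past 2-fold in either direction, with 13 above 0 and 3 below. The helicase DHX30 stood at 55.6 FPKM in the RIP against 30.2 in the input. The rRNA methyltransferase gene FTSJ2 stood at 22.7 and 27.0 FPKM. Mitochondrial ribosomal proteins, which bind the rRNAs, had a median of -0.29 over 77 genes. Of these, 1 was at least 2-fold higher (MRPS15, 163 and 70.5 FPKM) and none lower, beside 4.90% and 2.50% of all genes tested. Centred on the median gene 3 were lower and 1 higher, scaled to nuclear coding genes 4 and 0, and with equal sums 0 and 3. Scaling to nuclear coding genes turned the medians of the rRNA modification factors (-0.03) and of the transcription and maturation factors (-0.02) negative, and equal sums turned that of the ribosomal proteins positive (0.17).

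Mitochondrial translation factors had a median of 0.23 over 11 genes. Of these, 1 was at least 2-fold higher and none lower, beside 4.90% and 2.50% of all genes tested. The 1 higher gene was the release factor family member MTRF1, at 35.5 FPKM in the RIP against 14.1 in the input. TACO1, an activator of MT-CO1 translation, stood at 36.0 and 26.2 FPKM. The topoisomerases found in mitochondria, TOP1MT and TOP3A, had log2 ratios of 0.44 and 0.22.

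Nuclear copies of mitochondrial sequence bear on how surely fragments were assigned. MTATP6P1, an unprocessed pseudogene on chromosome 1 of GRCh38 (chr1:633696-634376), was the only such copy in the table. It stood at 25.5 FPKM in the RIP against 87.2 in the input, a log2 ratio of -1.74, against -1.42 for MT-ATP6. The copy and MT-ATP6 are both 681 bases long and differ at 10 of them, with a longest identical run of 141 bases. The 100 bases with the most differences are shown, with the 4 that differ in capitals, because only fragments covering such bases tell the genes apart.
MT-ATP6 (chrM:8619-8718): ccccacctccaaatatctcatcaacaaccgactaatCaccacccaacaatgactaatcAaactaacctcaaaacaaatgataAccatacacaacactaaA
MTATP6P1: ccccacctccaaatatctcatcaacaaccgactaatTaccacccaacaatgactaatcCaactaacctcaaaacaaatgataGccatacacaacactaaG
Fragments of one can be counted for the other, so both values are uncertain.

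The other members differed in how much sequence they share with nuclear transcripts. Of the stretches of 50 bases in MT-CO1, 49.5% also occurred in an annotated nuclear transcript, mostly the pseudogene MTCO1P12. The share was 46.7% for MT-ATP6, 30.6% for MT-CO3, 28.98% for MT-CO2, 14.04% for MT-RNR2, 8.23% for MT-ATP8 and 1.19% for MT-CYB. For MT-RNR1 it was 0 of 905. MT-CYB and MT-RNR1, with the least shared sequence, had ratios of -1.16 and -0.85. MT-CO1, with the most, had -0.98, and MT-ATP8, with 8.23%, had the lowest ratio, -1.76. The part of shared sequence in the ratios was not tested.

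The size of the difference from the input depended on how the libraries were scaled. The order of the members did not, because a scaling moves all genes of a library alike, apart from the pseudocount. FPKM summed over the table to 1090243 in the RIP against 1512049 in the input. When each library was scaled to the same sum (TPM), the median of all genes moved up by 0.43 and 1 of the 8 members, MT-ATP8, was still at least 2-fold lower. The mRNA median was then -0.82 and the rRNA median -0.63, with all genes at 0.56. Of all genes 1.06% were at least 2-fold lower under that scaling. Centred on the median gene, 7 members were at least 2-fold lower beside 3.75% of all genes, and scaled to nuclear coding genes all 8 were beside 4.52%. Under each of these scalings all 8 ratios were below 0. That they stayed below the median of all genes follows from the scalings by construction.

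**Figure D4:**
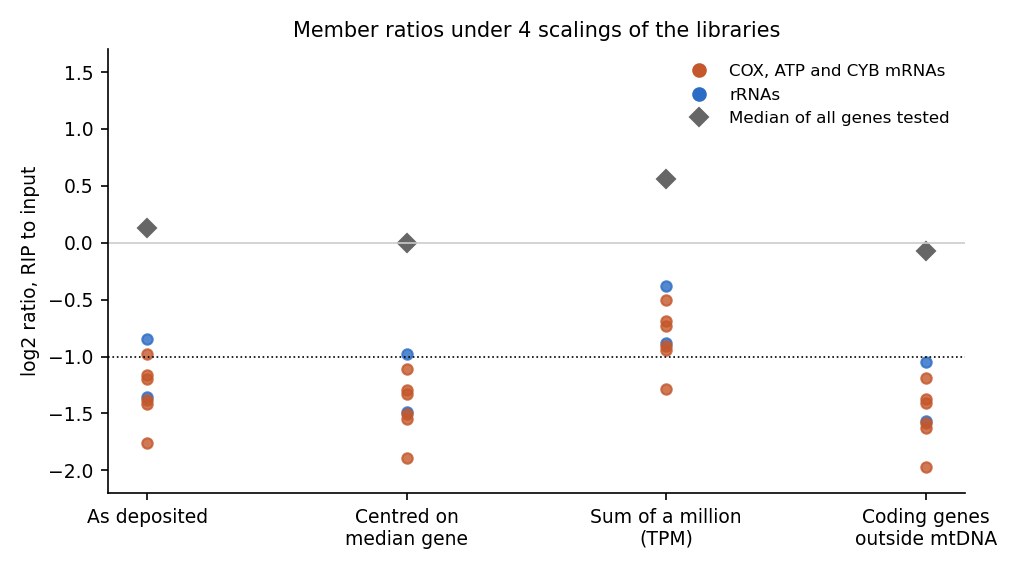
log2 ratio of RIP to input of the 8 members (mRNAs orange, rRNAs blue) and the median of all genes tested (grey diamonds) under 4 scalings of the 2 libraries. The dotted line marks 2-fold lower. The members move up and down together with the diamond, which goes from -0.07 to 0.56, and stay under it by construction.

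As facts of the whole series, estimated depth was 24900000 fragments in the RIP against 15300000 in the input, and the members took about 111819 and 150161 of these. Their summed FPKM was 0.473% of the table in the RIP against 0.784% in the input. The bait transcript TOP3B stood at 30666 and 15062 FPKM. Of 7 markers of HEK293 cells 6 were in the table, PAX2 not among them, and of 11 markers of liver, blood, endothelium, fibroblasts and kidney tubule only COL1A1 was, at 7.45 and 2.19 FPKM. No mitochondrial tRNA or MT-RNR2-like gene had a row in the table. The filter on low genes is not given in the sources used here. Rows for 5S and 5.8S rRNA, 5S pseudogenes included, numbered 29 tested with 11 distinct pairs of values, and their median log2 ratio was -1.36 over rows and -2.17 over distinct pairs. The 5.8S gene RNA5-8S5 stood at 189 and 6313 FPKM. The part of short length in the 5S and 5.8S ratios was not tested.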

How the data were processed

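RNA was measured in 1 RIP and 1 input library. Per the submitters' processing notes, the tools were RSEM 1.2.31, STAR 2.6.1, Trimmomatic 0.3 and cutadapt 1.18 with the build hg38, with no settings stated. The deposited table holds values that the authors did not name, taken here as FPKM because their sums exceed what TPM allows and they fall on steps that depend on transcript length. FPKM divides by the library's own total, so very abundant RNAs lower all others. Depth was searched for over genes with 1 transcript of at least 300 bases; the values came within 0.15 of a whole fragment for 57.9% of 330 genes (RIP) and 62.3% of 430 (input), so counts were estimated and no count test was run.

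Ratios used a pseudocount of 1 FPKM, which understates differences of low genes, and a floor of 5 FPKM in at least 1 library. A gene was counted when at least 2-fold apart on this scale. Annotation was GENCODE release 29, matched for 12983 of 13075 genes. Intervals at 95% cover counting error only, by Poisson counts for levels and a normal approximation on the log scale for ratios. The depth search and the ratios were tested on simulated data. Alternatives were other pseudocounts, floors, fold limits and scalings. Genes were named as all members, the ends of each list and the 5 nuclear genes nearest in ratio. The members and lists were chosen with earlier results of these data known. Python 3.11.15, numpy 2.4.6, pandas 2.3.3, scipy 1.17.1 and matplotlib 3.10.9 were used.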

Additional observations from a re-analysis of the deposited data

How the results depend on the processing

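No paired analysis was possible because there was only 1 library per group. TMM and DESeq2 size factors need counts and were not run. Against medians of -1.29 (mRNAs) and -1.10 (rRNAs), centring on the median gene gave -1.42 and -1.23, equal sums (TPM) -0.82 and -0.63, and scaling to nuclear coding genes -1.50 and -1.31. Without MT-ATP8, left out after seeing the data, the mRNA median was -1.20 and the difference from the rRNAs -0.10 instead of -0.19. Of the 8 members, 6 were at least 2-fold lower, 1 with equal sums and 0 at a 4-fold limit. Over all genes, 300 lower and 588 higher became 180 and 300 with a pseudocount of 5, and 157 and 352 with a floor of 20 FPKM. They became 450 and 365 when centred, 127 and 2428 with equal sums, and 542 and 284 when scaled to nuclear coding genes. A 1.5-fold limit gave 1222 and 2386, and a 4-fold limit 84 and 79. Values per annotated length, added after seeing the data, gave 146 lower genes. That count was also lowered by the pseudocount on the shortest RNAs and by genes without an annotated length. Of the genes past 2-fold, 66.2% were higher as deposited, 44.8% when centred, 95.03% with equal sums and 34.4% when scaled to nuclear coding genes. No member ratio changed sign under any of these. Scalings move all genes of a library by construction; other causes were not tested. Depth limits MT-ATP8 most, with about 173 fragments in the RIP.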
